A study of Drosophila melanogaster with 5 samples.

Results

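Eye-antennal disc tumors of a scrib mutant with Ras overexpression were compared with tumors of Ras overexpression alone, on 1 expression array each, out of 5 arrays in the series. The comparison was the log2 level in the scrib mutant array minus the log2 level in the Ras array, for each of the 13646 probe sets, out of 18952, that named exactly 1 gene. These gave 11981 genes, each represented by its brightest probe set, of which 7850 were kept because at least 1 of the 5 arrays reached a level of 6.36 log2, the 40th percentile of all gene levels. The series holds 5 groups of 1 array each. WT control discs, which the labels also call 79E control, and Ras tumors carried no named mutation, while Sras mutant 1, Sras mutant 2 and the scrib mutant were each combined with Ras overexpression, and the scrib mutant served as positive control. All samples were eye-antennal imaginal discs or their tumors, dissected from larvae of the third instar raised at 25 °C, and tumor clones carried GFP through MARCM, which labels the homozygous cells that arise in a heterozygous animal. The labels do not give the scrib allele, the driver of Ras, the number of animals pooled or whether marked cells were sorted. Below, the scrib array stands for the scrib mutant with Ras, and the Sras arrays for the Sras mutants with Ras.

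The eye-antennal disc is a folded epithelium that forms the adult eye, antenna and head. Scribble, the protein of scrib, works with Discs large and Lethal giant larvae on the basolateral side of epithelial cells, and its loss disturbs the polarity of the disc. Clones that lack such a polarity gene are usually eliminated by their neighbours, but together with activated Ras they overgrow, stop differentiating and invade, in a much used fly model of tumor cooperation. In that model JNK, a stress kinase, drives secreted cytokines of the JAK/STAT pathway, matrix remodelling and Ilp8, a relaxin-like hormone that delays metamorphosis.

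Since there was 1 array per group, every value below describes 2 arrays and no test, error or p-value could be given. The closest guide to the spread between arrays was the difference between both Sras arrays, which had an SD of 0.243 log2 over the 7850 genes. Quantile normalization was applied because array medians differed by 0.153 log2, and after it the median difference, scrib minus Ras, of all kept genes was 0.12. The following limits touch every result. Control probe sets at the 3′ end exceeded those at the 5′ end of 3 housekeeping genes by 1.35 log2 on average in the Ras array, and by 0.88 to 0.95 in the other 4 arrays. Transcripts of other larval tissues were abundant in the Ras and WT control arrays and far lower in the scrib array, as described near the end. Those of salivary gland, muscle and fat body were also lower in the Sras arrays than in Ras. In whole tissue, fewer cells of a type and less RNA per cell cannot be told apart. The gene scrib itself read 11.30 in the scrib array, 10.76 in Ras, 10.56 in WT control, and 11.56 and 11.51 in Sras mutants 1 and 2, and the differences of its 5 probe sets, scrib minus Ras, ran from −0.97 to 0.82. With the allele unknown, this level does not check the label. The partners dlg1 and l(2)gl differed by 0.17 and 0.91, and none of 14 apical-basal polarity genes and none of 9 adherens junction genes were 2-fold apart.

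The scrib array differed widely from Ras. Of the 7850 genes, 727 were at least 2-fold higher (9.26%) and 1111 at least 2-fold lower (14.2%), while the middle part of all genes, between the quartiles, lay from −0.34 to 0.53. These counts rest on equal distributions of all genes. Centring the arrays on eye and antennal identity genes instead, many of which are low in the scrib array, raised the median of all genes by 0.98. It gave 4918 higher and 685 lower genes, out of 8461 then kept, and every list median between −0.76 and 0 turned positive under it. The tails were unequal. At least 4-fold, 149 genes were higher and 621 lower, and at least 16-fold, 5 were higher and 120 lower. In the scrib array 553 of the lower genes were below the filter value, and in the Ras array 143 of the higher genes were. Among the 6674 genes that reached 6.36 in both arrays 584 were higher and 558 lower, but that choice itself leaves out genes that dropped below 6.36, so it does not bear on the inequality. For a gene below that level on one side, the fold is given here as a bound, the bright array's level against 6.36.

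**Figure D1:**
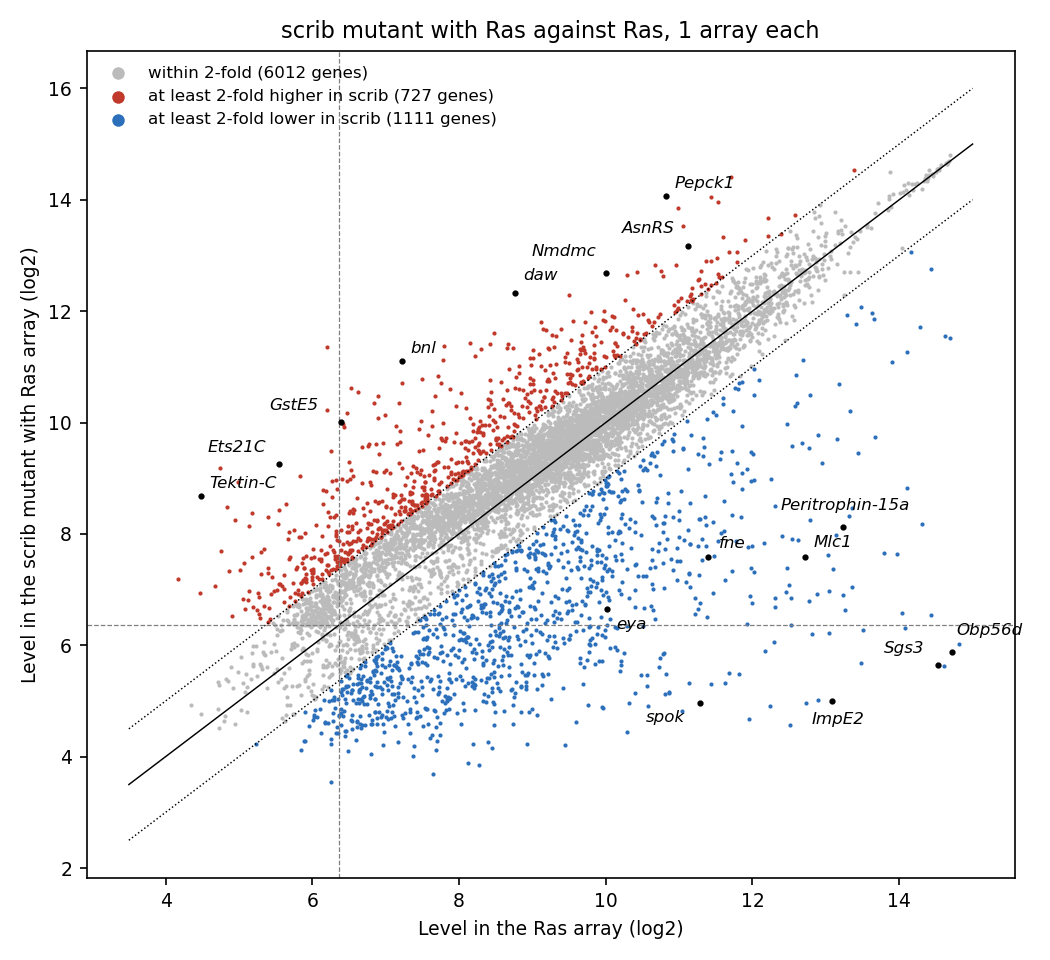
Levels of 7850 genes in the Ras array (x axis, log2) against the scrib mutant with Ras array (y axis, log2), 1 array each. Dotted lines mark 2-fold, dashed lines the filter value of 6.36, and 16 genes described in the text are named. The 1111 lower genes spread much further from the diagonal than the 727 higher genes.

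Leaving out genes known only by a CG or CR number, the genes highest above Ras and measured on both sides were led by bnl (14.7-fold), an FGF, GstE5 (12.3-fold), a glutathione transferase, spz3 (12-fold), a Spätzle-family ligand, Cpr64Ac (12-fold), a cuticle protein, and daw (11.9-fold), an activin-like ligand. Next came Cyp4p1, tut, Gadd45, Rcd2 and Pepck1, which were 11.1-, 11.1-, 10.2-, 9.70- and 9.42-fold higher. By the same choice, the lowest genes measured on both sides included the glue protein genes Sgs5 and Sgs1, the peritrophin genes Peritrophin-15b and Peritrophin-15a, muscle genes such as Mlc1, Zasp66 and Tm2, the fat body gene Fbp1 and the odorant-binding protein gene Obp99b, with differences from −7.89 (Sgs5) to −4.86 (Tm2).

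The other arrays showed which of these differences set the scrib array apart. Its level was the highest of the 5 arrays by at least 1 log2 for 216 genes (2.75%) and the lowest by that margin for 420 (5.35%). The same margin was met upward by 22 genes in Ras, 90 in WT control, 2 in Sras mutant 1 and 4 in Sras mutant 2, and downward by 1, 10, 12 and 3. The Sras arrays lay close to each other, and so did WT control and Ras (SD of their difference 0.351). The scrib array had no such near partner (SD of 0.787 or more against each other array), so these counts also reflect which groups the series holds. With at most 3 genes known only by a CG number named in each direction, the genes with the widest upward gaps in the values as read included CG13215 (4.24 above the next array), CG5646 (3.96), daw (3.57), bnl (3.20) and Cpr64Ac (3.06), whose next array reached the filter value. For CG9517, Tektin-C, a sperm axoneme protein gene, retinin and Cyp4e3 all other arrays lay below it, and the gap was at least 2.58, 2.32, 1.94 and 1.78. Tektin-C read 8.68 in the scrib array and 4.48, 4.0, 4.24 and 4.44 in Ras, WT control, Sras mutant 1 and Sras mutant 2, at least 4.99-fold over the filter value. Downward, under the same limit, they included Peritrophin-15b (5.59 below the next array), Peritrophin-15a (4.85) and CG14300 (4.70). For CG34282, ImpE2, Spn43Aa, CG17826 and Muc96D the scrib array lay below the filter value, and the gap was at least 6.49, 6.27, 4.24, 4.06 and 3.68.

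Of the 9 kept genes of the FGF and PDGF/VEGF-like list, 4 were at least 2-fold higher, 1 lower and 4 within 2-fold, against 9.26% higher and 14.2% lower among all genes. The FGF gene bnl, whose product guides tracheal branching, read 11.11 in the scrib array, 7.23 in Ras, 6.89 in WT control, and 7.30 and 7.91 in the Sras arrays. All 3 probe sets of bnl were higher, by 3.88, 2.84 and 1.72. The activin-like gene daw, which signals through the receptor gene babo, read 12.33 in the scrib array against 8.76 in Ras, 8.65 in WT control, and 7.25 and 8.44 in the Sras arrays. For both ligands the scrib array stood alone, while of their receptor genes btl, which was near the filter value, differed by 0.17 and babo by 0.20. The PDGF/VEGF-like ligand gene Pvf1 read 10.48 in the scrib array and 7.68, 8.40, 8.24 and 8.80 in Ras, WT control and Sras mutants 1 and 2. Pvf2 was 4.86-fold and their receptor gene Pvr 3.02-fold higher than in Ras. The lower gene was htl, an FGF receptor gene of mesoderm, which read 5.93 in the scrib array and 8.61 in Ras, at least 4.76-fold lower.

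Other ligands were shared with the Sras arrays. The gene spz3 read 11.38 in the scrib array, 7.79 in Ras, 6.97 in WT control, and 11.15 and 11.63 in the Sras arrays. Ilp8 read 11.19 in the scrib array, 8.21 in Ras, 5.00 in WT control, and 12.26 and 12.57 in the Sras arrays, so it was 7.88-fold above Ras but lowest among the 3 mutant arrays. The JAK/STAT ligand gene upd1 read 8.93 against 6.78 in Ras, with 10.39 and 10.88 in the Sras arrays, and upd2 read 8.04 against 5.69, with 8.25 and 8.89. The receptor gene dome and the transcription factor gene Stat92E differed from Ras by 0.38 and 0.08. ImpL2, a secreted binder of insulin-like peptides, read 14.41 in the scrib array, 11.71 in Ras, 11.70 in WT control, and 12.55 and 13.15 in the Sras arrays, where the scrib array was the highest.

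Within the Dpp and activin list (23 kept genes, median 0.40), 3 genes were higher and 3 lower by 2-fold, shares close to those of all genes (9.26% and 14.2%). Beside daw, the higher genes were tld (4.6-fold), a metalloprotease that frees BMP ligands from their inhibitor, and magu (2.27-fold), a secreted modulator of Dpp. The lower genes were the activin ligand gene Actbeta, which read 5.66 against 8.85 in Ras (at least 5.60-fold), the type II receptor gene wit (5.41-fold) and bi, a T-box target of Dpp (6.10-fold). Actbeta, wit and bi lay between 8.27 and 10.65 in the other 4 arrays, so these 3 were also low in the scrib array alone.

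**Figure D2:**
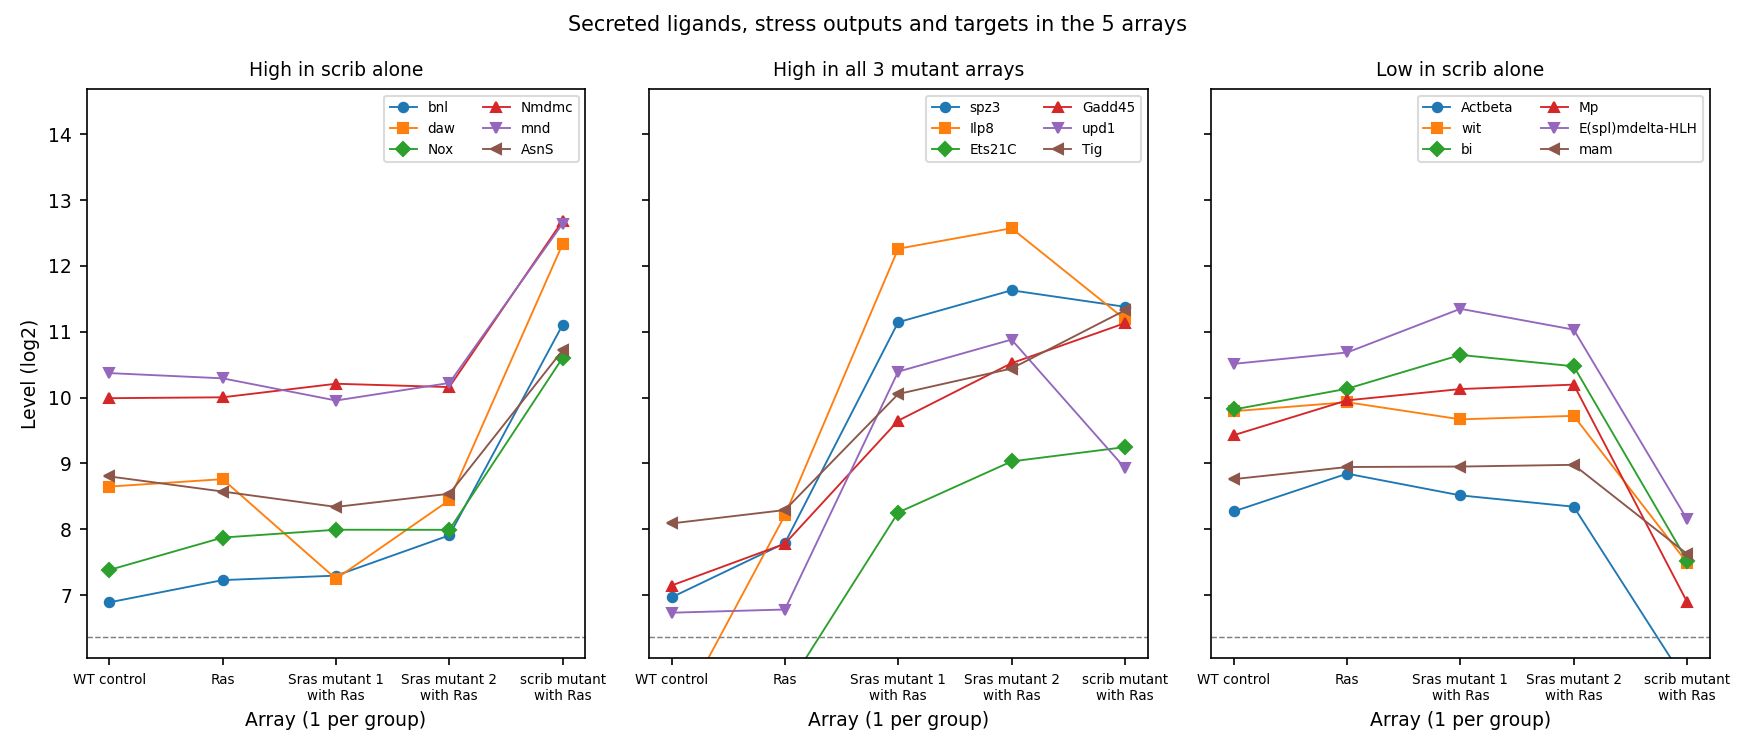
Levels (y axis, log2) of 18 genes in the 5 arrays (x axis, 1 array per group), with lines only to join the points of a gene. The genes on the left are highest in the scrib array, those in the middle are above Ras in all 3 mutant arrays, and those on the right are lowest in the scrib array. The dashed line is the filter value of 6.36.

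JNK outputs were higher while the kinase cascade itself was not. Of 14 kept JNK nuclear factors and targets, 12 were at least 2-fold higher than in Ras (median difference 1.91, against 0.12 for all genes), against 9.26% of all genes. Of 13 ligand, receptor and kinase genes, 1 was (median 0.06). That gene was grnd, a receptor of the TNF Eiger, at 2.34-fold. The ligand gene egr differed by −0.65, the JNK kinase gene hep by −0.17 and the JNK gene bsk by −0.64. Both lists, like the others not added later, were written with earlier results of these data known. Their shares are therefore descriptions only. Among the outputs, the transcription factor gene Ets21C read 9.25 in the scrib array, 5.54 in Ras, 5.19 in WT control, and 8.26 and 9.03 in the Sras arrays, at least 7.41-fold over Ras. Gadd45, a stress-response gene, was 10.2-fold higher and Tig, which encodes an integrin ligand, 8.18-fold. The fos gene kay read 11.32 in the scrib array, 9.65 in Ras, 9.66 in WT control and at most 10.28 in the Sras arrays. The Jun gene Jra differed by 0.95, and puc, the phosphatase that feeds back on JNK, by 0.56, so both stayed within 2-fold.

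Further basic leucine zipper and ETS factors split in direction. CrebB, Irbp18 and Atf3 were 3.10-, 2.95- and 2.63-fold higher, and slbo, below the filter value in Ras, at least 1.83-fold. Atf-2 read 6.09 against 8.0 in Ras and Ets65A 4.80 against 7.33, which gives bounds of 3.13-fold and 1.96-fold lower. Altogether 6 of 17 members of that list were higher by 2-fold, against 9.26% of all genes, and 2 lower, against 14.2%. Of the 6, Ets21C, kay and Atf3 were already counted among the JNK nuclear factors and targets.

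Genes of adhesion and invasion also split. Higher were Tig, the focal adhesion genes Pax (2.34-fold) and stck (2.19-fold), and the filamin genes jbug (2.11-fold) and cher (2.05-fold), which made 5 of 19 kept genes (9.26% of all genes were higher). Among the 2 lower genes (14.2% of all genes) was Mmp2, a matrix metalloprotease gene, which read 8.62 in the scrib array, 9.96 in Ras, 9.84 in WT control, and 11.04 and 11.02 in the Sras arrays. The metalloprotease gene Mmp1 was not among the 19 kept genes, so no value is given for it. The integrin gene ItgaPS4 read 4.23 in the scrib array and 5.23 in Ras, both below the filter value, and 7.97 and 8.69 in the Sras arrays. In the basement membrane list (14 genes) the median difference was −0.49 and no gene was 2-fold higher. Its lowest member was Mp, a collagen XV/XVIII gene, which read 6.90 against 9.96 in Ras, 9.43 in WT control and over 10 in both Sras arrays (10.13 and 10.20). A second, dimmer probe set of Mp differed the other way, by 0.85 from a Ras level below the filter value. The formin gene dia was 2.57-fold higher, the 1 gene of 12 kept actin cytoskeleton genes past 2-fold.

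Of 12 kept genes of the list of Yorkie, its partners and targets, 4 were at least 2-fold higher (bnl, kibra, ex and fj) and 1 lower, against 9.26% and 14.2% of all genes. The lower gene, vg, lay below the filter value in both arrays (5.06 and 6.29). In Hippo signalling, the upstream genes kibra (at least 5.45-fold), ex (3.27-fold) and fj (3.09-fold), which are also targets of the coactivator Yorkie, were higher, while hpo, wts and yki differed by −0.16, 0.48 and −0.01. Of the genes that feed back on EGFR and Ras signalling, Mkp3, kek1 and sty were 2.2-, 2.1- and 2.07-fold higher and rau 2.36-fold lower (3 higher and 2 lower of 12 kept), and none of 12 cascade genes was 2-fold apart. The insulin and TOR list had 5 higher and 2 lower among 13 kept genes. Its members S6k, foxo and REPTOR, a factor that is active when TOR is low, were 2.90-, 2.26- and 3.60-fold higher. InR differed by 0.74 and mTor by −0.16.

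Several Notch genes were lower. Of 17 kept genes 6 were at least 2-fold lower, against 14.2% of all genes, 10 lay within 2-fold and 1 was higher, with a median difference of −0.47. The target gene E(spl)mdelta-HLH read 8.15 in the scrib array, 10.69 in Ras, 10.51 in WT control, and 11.35 and 11.03 in the Sras arrays. E(spl)m4-BFM, neur, which encodes a ubiquitin ligase that activates Delta, dpn and the coactivator gene mam were 4.40-, 2.95-, 2.94- and 2.50-fold lower. A second probe set of mam differed by 0.62, from a Ras level below the filter value. The ligand gene Delta differed by −0.39. In the other direction, fng, which encodes a glycosyltransferase that modifies Notch, was 2.66-fold higher.

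The amino acid and one-carbon list was divided: among its 17 kept members 4 were higher by 2-fold or more and 5 lower (median 0.52), against 9.26% and 14.2% of all genes. The transporter genes mnd, JhI-21 and path were 5.10-, 4.43- and 3.94-fold higher, and with the trehalose transporter gene Tret1-1 (4.89-fold) they made 4 of 6 kept transporters, all 4 highest of the 5 arrays by at least 1 log2 (2.75% of all genes were). The gene mnd read 12.64 in the scrib array, 10.29 in Ras, 10.37 in WT control, and 9.96 and 10.22 in the Sras arrays. Asparagine synthetase, AsnS, read 10.72 in the scrib array against 8.57, 8.80, 8.34 and 8.54 in Ras, WT control and Sras mutants 1 and 2. Nmdmc, a mitochondrial enzyme of the folate cycle, read 12.69 in the scrib array and lay between 9.99 and 10.21 in the other 4. Bcat, which encodes the branched-chain aminotransferase, read 11.68 against at most 9.14 elsewhere. Lower were the glutamine synthetase genes Gs2 (21.7-fold) and Gs1 (11.7-fold), and Gnmt, which read 5.94 against 9.34 in Ras. CG6415, also counted as lower, read 5.40 against 6.62 in Ras, a bound of only 1.20-fold. The fifth gene counted as lower, slif, lay below the filter value in both arrays (4.75 and 6.02). Gs2 is also a glial gene, and it was as low in the Sras arrays (8.44 and 8.01) as in the scrib array (7.97).

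Aminoacyl-tRNA synthetases, a list added after the values of AsnS and the transporters had been seen, were then divided by compartment. Of 15 cytosolic enzyme genes 10 were at least 2-fold higher, against 9.26% of all genes, and their differences ran from 0.34 to 2.04 (median 1.24). Of 14 mitochondrial ones none was 2-fold apart, and 13 lay above 0, in a range from −0.08 to 0.80 (median 0.56) that overlaps the first. The difference between both groups was not tested. AsnRS read 13.17 in the scrib array, 11.13 in Ras, 11.26 in WT control, and 11.44 and 11.53 in the Sras arrays. HisRS, ValRS, LeuRS, ThrRS and SerRS were 3.51-, 3.03-, 2.97-, 2.69- and 2.47-fold higher. TrpRS was 2.40-fold higher on its brightest probe set, but its other probe sets differed by 1.67 and −1.30. The gene crc, the fly ATF4, which is known to activate such genes when amino acids are short, differed by 0.42.

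In the glycolysis list 8 of 24 kept genes were at least 2-fold higher, against 9.26% of all genes, 1 was lower, and the median difference was 0.46. Pepck1, which encodes phosphoenolpyruvate carboxykinase, read 14.06 in the scrib array, 10.82 in Ras, 10.02 in WT control, and 11.45 and 12.18 in the Sras arrays. Phosphofructokinase (Pfk), hexokinase (Hex-A) and phosphoglucose isomerase (Pgi) genes were 3.81-, 3.42- and 2.24-fold higher. The lower gene was fbp, fructose-1,6-bisphosphatase, which was 3.77-fold lower. Hph, the prolyl hydroxylase that acts on the hypoxia factor Sima, was 3.62-fold higher, and sima differed by 0.53. The remaining higher genes were Tret1-1, given above, and Glyp and AGBE, which differed by 1.15 and 1.16. The other 15 genes lay within 2-fold, and among them the glucose transporter gene Glut1 differed by −0.59 and the enzyme genes Gapdh1, Tpi, Pgk, Ald1 and Eno, chosen after their values were seen, by 0.24 to 0.95. Respiratory complex I (27 genes, median −0.10) had no gene past 2-fold, and complexes II to V (27 genes, median −0.07) had 2 higher.

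Stress genes of the endoplasmic reticulum did not move as one. Of 30 kept genes 4 were at least 2-fold higher, a share near the 9.26% of all genes, and none lower, with a median of −0.13. The 4 were Sil1, an exchange factor for the chaperone BiP (3.72-fold), Ero1L, which drives disulfide formation (3.38-fold), and the stress sensor kinases Ire1 (3.03-fold) and PEK (2.53-fold). The BiP gene Hsc70-3 differed by −0.28 and Atf6 by −0.06. All 7 genes of the translocon, signal peptidase and glycosylation lay below 0 (median −0.53), and 6 of 7 lumenal chaperone and disulfide isomerase genes did (median −0.25). No gene of the secretory pathway list (20 genes) or the proteasome (28 genes) was 2-fold apart, with medians of −0.21 and −0.27.

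Among heat shock genes, Hsp68 read 10.83 in the scrib array, 7.71 in Ras, 8.75 in WT control, and 11.73 and 12.54 in the Sras arrays. Hsp26 and the co-chaperone gene stv were 5.42- and 4.21-fold higher, while the small heat shock gene Hsp27 was 3.16-fold lower. Hsp27 read 11.97 in the scrib array and between 13.40 and 13.78 in the other 4. The mitochondrial chaperonin, protease and prohibitin genes Hsp60A, Lon and Phb1 were 2.19-, 2.30- and 2.19-fold higher. They made 3 of 16 kept genes in a list added after values were seen, against 9.26% of all genes. Mitochondrial ribosomal genes (69) had a median of 0.29 and cytosolic ribosomal genes (37) one of 0.03, with 1 gene past 2-fold in each.

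Many detoxification genes were higher, and some were lower. Of 29 kept glutathione transferase genes 10 were at least 2-fold higher, against 9.26% of all genes, and 4 lower, a share near the 14.2% of all genes. Of the 29, 7 were highest of the 5 arrays by at least 1 log2, against 2.75% of all genes. GstE5 read 6.39 in Ras, 6.26 in WT control, and 8.10 and 8.08 in the Sras arrays, and its level in the scrib array was 3.62 above that in Ras, and GstE6 was 8.82-fold above Ras. GstD5 read 8.24 against 4.94, at least 3.69-fold. In the other direction, GstE14, known for its role in making ecdysone, read 5.51 against 8.94 (at least 5.99-fold), and GstZ2 read 6.12 against 9.49 (at least 8.78-fold). Of 34 cytochrome P450 genes 12 were higher and 10 lower, against 9.26% and 14.2% of all genes. Cyp6a20 was at least 7.09-fold and Cyp4p1 11.1-fold higher, and Cyp4g15 6.71-fold lower. Nox, the NADPH oxidase gene, which makes reactive oxygen, read 10.60 in the scrib array and 7.88, 7.38, 7.99 and 7.99 in Ras, WT control and Sras mutants 1 and 2. Gclc, which makes glutathione, and the thioredoxin reductase gene Trxr1 were 2.63- and 2.40-fold higher. Their activator gene cnc differed by 0.06.

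**Figure D3:**
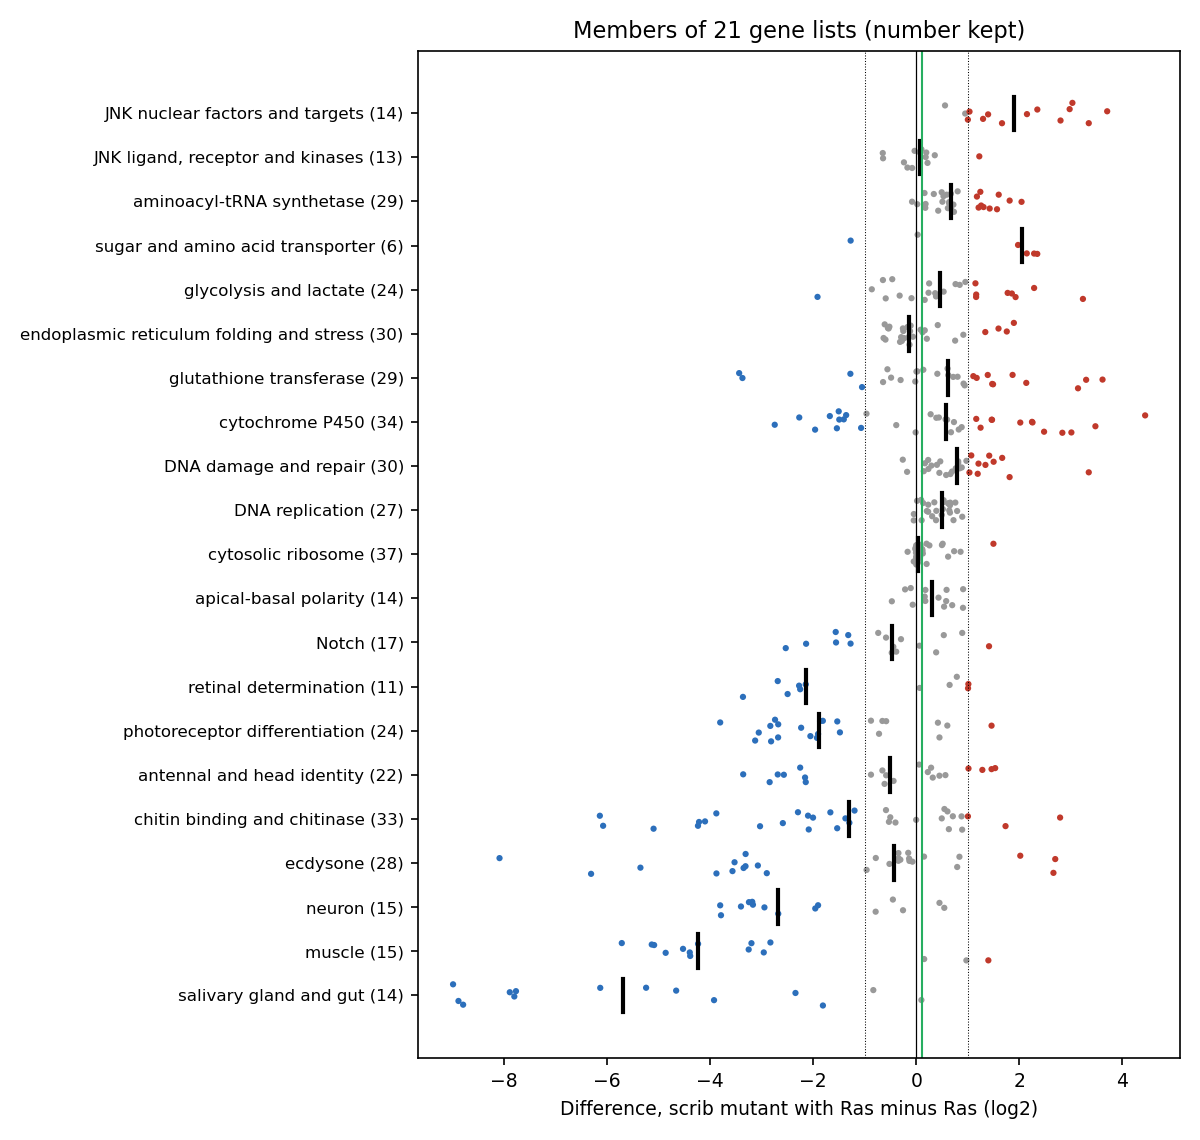
Difference, scrib mutant with Ras minus Ras (x axis, log2), of each kept member (point) of 21 gene lists, with the number kept in brackets. Black bars are list medians, the green line is the median of all genes (0.12), dotted lines mark 2-fold, and red and blue points lie past it. JNK outputs and transporters lie furthest right, and markers of salivary gland and muscle furthest left.

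Eye identity genes went both ways, with 2 of 11 kept retinal determination genes at least 2-fold higher, 6 lower and 3 within 2-fold. Among all genes 9.26% were higher and 14.2% lower. The Pax6 gene ey read 9.37 in the scrib array, 8.72 in Ras, 8.66 in WT control, and 10.45 and 10.31 in the Sras arrays. Its relatives toy and eyg were 2.01- and 2.02-fold higher than in Ras, and the homeobox gene Optix and the zinc finger gene tsh differed by 0.79 and 0.07. In contrast eya, the phosphatase and coactivator gene of the same network, read 6.66 in the scrib array, 10.02 in Ras, 9.63 in WT control, and 11.13 and 10.83 in the Sras arrays. Its partner so read 6.59 against 8.86, 8.55, 10.24 and 10.04 in the same order. The cofactor gene dac and the genes danr and dan were 5.64-, 6.44- and 4.76-fold lower than in Ras, and the appendage gene Dll 4.42-fold. Each of the 6 lower genes was lowest of the 5 arrays by at least 1 log2 (5.35% of all genes were), and the list's median was −2.14. That median is the value of Dll itself, and Dll, dan and danr are also on the antennal and head list. Every kept retinal determination gene reached the filter value in all 5 arrays.

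Of 14 kept furrow and proneural genes, which act where photoreceptors are born, 5 were at least 2-fold lower, 1 higher (lilli) and 8 within 2-fold, with a median of −0.28. Among all genes 14.2% were lower and 9.26% higher. Of the 5, gl and ro are counted again below among the photoreceptor differentiation genes. The proneural gene ato was 2.09-fold lower than in Ras, and gl, a zinc finger factor of photoreceptors, 8.73-fold. The gene gl read 6.54 in the scrib array, 9.66 in Ras, 9.12 in WT control, and 10.35 and 10.16 in the Sras arrays. The proneural partner gene sens read 5.59 against 8.09 (at least 3.32-fold). Of 24 kept photoreceptor differentiation genes 16 were at least 2-fold lower, 14 of them lowest of the 5 arrays by at least 1 log2, against 14.2% and 5.35% of all genes, with a median of −1.89. The RNA-binding protein gene fne was 14.0-fold, the sodium pump subunit gene nrv3 8.32-fold, pros 7.04-fold and svp 6.68-fold lower. Many of these genes are also active in other neurons. Neuron markers were lower in the same array (median −2.68 over 15 genes), and their part in the photoreceptor result was not tested. Against WT control instead of Ras, the medians were −1.96 for retinal determination and −1.61 for photoreceptor genes.

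Antennal and head genes went both ways, with 4 of 22 at least 2-fold higher, 7 lower (9.26% and 14.2% of all genes) and a median of −0.51 (0.31 after centring on identity genes). Of the 7, Dll, dan and danr were already counted among the lower retinal determination genes. Lim1 and the head gene oc read 10.43 and 9.05 in the scrib array, 2.89- and 2.76-fold above Ras, and were the highest of the 5 arrays by at least 1 log2. The selector genes ct and ems were higher too (ems 2.02-fold, ct at least 1.91-fold). The lower genes included bab2 (5.93-fold), tll (at least 2.74-fold) and Antp (at least 2.61-fold). Antp is a Hox gene of the thorax, and it was equally low in the Sras arrays (4.26 and 4.46, against 4.38 in the scrib array).

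**Figure D4:**
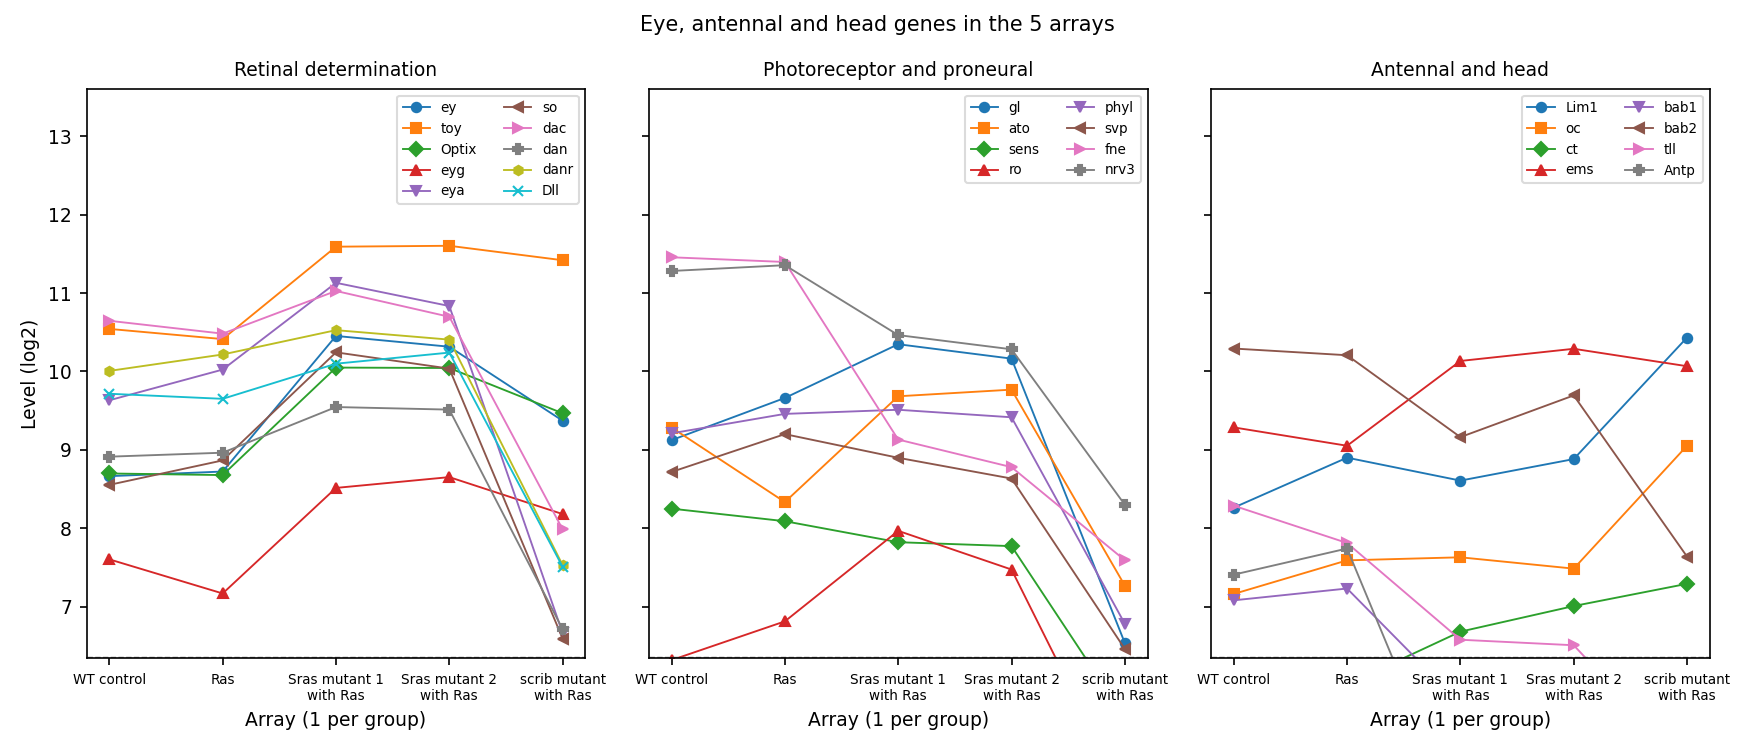
Levels (y axis, log2) of 26 eye, antennal and head genes in the 5 arrays (x axis, 1 array per group), with lines only to join the points of a gene and the filter value of 6.36 dashed. In the scrib array eya, so, dac, dan, danr and Dll are far below the other arrays while ey, toy, Optix and eyg are not, and Lim1 and oc are the highest.

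Many chitin and peritrophin genes had their lowest level in the scrib array. Of 33 kept chitin-binding and chitinase genes 18 were at least 2-fold lower, 12 of them lowest of the 5 arrays by at least 1 log2, against 14.2% and 5.35% of all genes, and the median was −1.30 (0.026 after centring on identity genes). Peritrophin-15a read 8.13 in the scrib array, 13.23 in Ras, 13.62 in WT control, and 13.58 and 12.98 in the Sras arrays. Peritrophin-15b read 6.97 in the scrib array and 13.05, 13.33, 12.91 and 12.56 in the others, in the same order. The mucin gene Muc96D (at least 33.8-fold lower than Ras), the deacetylase gene Cda9 (at least 13.9-fold), obst-F (at least 10.2-fold) and obst-J (at least 7.41-fold) fell below the filter value in the scrib array. Opposite to these were the chitinase gene Cht6 (6.93-fold higher, with all 3 of its probe sets above 1 log2) and the deacetylase gene Cda5 (3.33-fold higher).

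Of 28 kept genes of the ecdysone list, which covers synthesis of and response to the moulting hormone, 11 were at least 2-fold lower and 3 higher, against 14.2% and 9.26% of all genes. Of the 11, 5 were synthesis genes (spok, sro, nvd, sad and phtm, of 7 kept), which are also on the ring gland list, and 6 were among the other 21. The 3 ImpE genes, which ecdysone induces in imaginal discs, were among the lower. ImpE2 read 5.00 in the scrib array, 13.08 in Ras, 13.40 in WT control, and 12.63 and 13.06 in the Sras arrays, at least 106-fold lower than Ras. ImpE3 was at least 15.6-fold lower, and read 4.97 against 10.32, 10.93, 8.69 and 10.07. ImpE1 was 9.94-fold lower. The other inducible genes ImpL2, described above, and ImpL1 differed the other way, by 2.70 and 0.84. The serpin gene Spn43Aa and the juvenile hormone binding gene Jhbp2 were at least 44.1- and 21.9-fold lower. The receptor genes EcR and usp differed by −0.13 and −0.14. Among response genes, ftz-f1, a nuclear receptor gene that is active after an ecdysone pulse has passed, was 6.34-fold higher, with both of its probe sets past 2-fold. Cyp18a1, which inactivates ecdysone, was 4.06-fold higher, and the nuclear receptor gene Eip78C at least 4.34-fold lower. The labels give no finer age than the third instar, and the part of age in these differences was not tested.

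**Figure D5:**
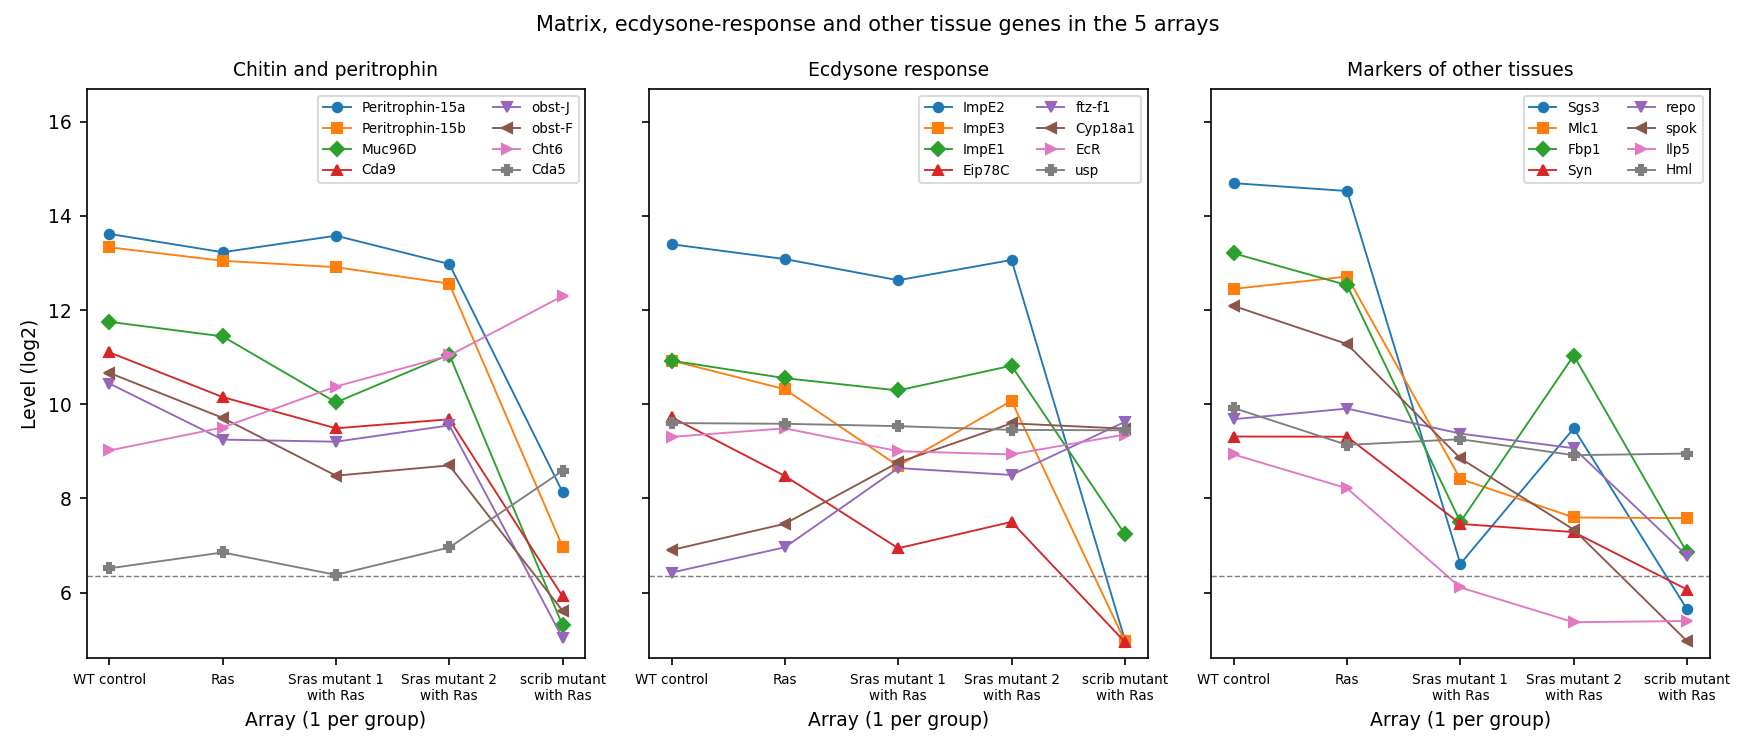
Levels (y axis, log2) of 24 genes in the 5 arrays (x axis, 1 array per group), with lines only to join the points of a gene and the filter value of 6.36 dashed. The peritrophin, mucin and ImpE genes are low in the scrib array alone, whereas Sgs3, Mlc1, Syn, spok and Ilp5 are low in all 3 mutant arrays, and Hml differs little between arrays.

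Markers of tissues other than the disc were among the lowest genes of the comparison. Among all genes 14.2% were at least 2-fold lower and 9.26% higher. All 7 kept glue genes of the salivary gland were lower, 5 of them below the filter value in the scrib array, and taken to that value the differences ran from 5.24 to 8.45 log2. The glue gene Sgs3 read 5.64 in the scrib array, 14.53 in Ras, 14.70 in WT control, and 6.61 and 9.49 in the Sras arrays. The summed level of the 14 salivary gland and gut genes was 10.9 log2 in the scrib array and 17.3 in Ras, with 8 and 1 of them below the filter value. For muscle, 12 of 15 genes were at least 2-fold lower and 1 higher (median −4.23), the summed level was 12.6 against 15, and 4 against 0 genes lay below the filter value. For neurons, 10 of 15 were lower, the summed level was 11.3 against 13.4, and 5 against 1 lay below it. For the fat body, 4 of 11 were lower and 2 higher (median −0.65), with summed levels of 13.6 and 15.4 and none below the filter value. The Sras arrays were low as well. In Sras mutants 1 and 2 the summed level was 11.0 and 12.8 for salivary gland and gut, and 12.5 and 12.6 for muscle. It was 13.4 and 14.1 for the fat body, and 12.4 and 12.5 for neurons, between the scrib array and Ras. Glia had 6 of 13 lower and 2 higher, with a summed level of 14.7 against 14.4 that turned on 1 gene, vir-1 (13.86 in the scrib array and 10.98 in Ras). Without vir-1 the glial sum was 13.6 against 14.2, a value computed after the levels were seen. Of 21 hemocyte markers 3 were lower (gcm, lz and NimC2) and 2 higher (Pvr and NimB1), shares close to those of all genes, with a median of −0.18 and a summed level of 14.3 against 14.1. The hemocyte gene Hml read 8.95 in the scrib array and 9.14 in Ras.

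Hormone-producing cells of the ring gland and brain formed a list added after values were seen, and 13 of its 21 kept genes were at least 2-fold lower and 2 higher (median −2.18), against 14.2% and 9.26% of all genes. The ecdysone synthesis gene spok read 4.97 in the scrib array, 11.28 in Ras, 12.09 in WT control, and 8.85 and 7.34 in the Sras arrays. The insulin-like genes of brain cells, Ilp2 and Ilp5, read 6.39 and 5.40 against 8.57 and 8.21 in Ras, and jhamt, an enzyme gene of juvenile hormone synthesis, 5.20 against 8.70. Cuticle protein genes (49 kept) included 25 lower and 4 higher, and odorant-binding protein genes (15 kept) 9 lower and none higher, against the same shares. The part of these markers in the differences of disc genes was not tested.

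DNA repair genes were higher in part. Of 30 kept genes of DNA damage and repair 10 were at least 2-fold higher, against 9.26% of all genes, and none lower (median 0.80). After Gadd45 these were led by Irbp, the fly Ku70 (3.51-fold), PolZ1, a translesion polymerase subunit (3.18-fold), Ku80 (2.83-fold), PolQ (2.67-fold) and DNAlig4 (2.54-fold), which act in lesion bypass and end joining. Irbp read 9.54 in the scrib array, 7.73 in Ras, 7.63 in WT control, and 9.25 and 9.44 in the Sras arrays. None of the 30 was highest of the 5 arrays by 1 log2. None of 27 replication genes was 2-fold apart, although their median was 0.50, and 1 of 26 mitosis genes and none of 15 cell cycle genes was 2-fold higher. In the cell cycle list fzr, an activator of the anaphase-promoting complex used by cells that leave the cycle, was 2.35-fold lower. Of 12 kept apoptosis genes 1 was at least 2-fold higher, 1 lower and 10 within 2-fold (median 0.25). Among all genes 9.26% were higher and 14.2% lower. The higher gene, p53 (2.10-fold), read 10.48 in the scrib array and 10.58 and 10.83 in the Sras arrays. The lower gene, the cell death inducer skl, read 5.15 against 8.76 in Ras (at least 5.27-fold lower).

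Agreement between probe sets of a gene was limited. Of 1094 genes with several probe sets, 369 reached the filter value with each of them. In 184 of these (49.9%) all probe sets lay on the same side of 0 and within 1 log2 of each other. Of 171 such genes with at least 1 probe set past 2-fold, 126 had all probe sets on the same side of 0, and 56 had all of them past 2-fold the same way. Probe sets went 2-fold in opposite directions for 6 genes, lola, Nrg, Mob2, TrpRS, CG12054 and CG31064. In lola, a gene with many isoforms, the 15 probe sets ran from −2.05 to 1.74. Counted by probe set, 917 of 13646 were at least 2-fold higher and 1286 lower.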

How the data were processed

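Per the labels, total RNA from 5 samples was labelled with biotin and hybridised to 1 array each. The authors deposited 1 table of log2 values. How they corrected, normalized and summarised the probes was not given in the sources used here. That the values are on a log2 scale was inferred from their range. The number of arrays limits the precision. Because array medians differed by more than 0.1, all 5 arrays were quantile normalized, which hides any shift of most genes one way. Probe sets with exactly 1 symbol in the platform annotation were used, 402 with several were not, and symbols were updated through a gene table of the Release 6 fly assembly, which held 13543 of 13646. The brightest probe set (mean of 5 arrays) stood for a gene, and genes under the 40th percentile on every array were left out. Differences of 1 log2 or more were counted as 2-fold. The samples compared, the members of 74 gene lists and the rule for named genes were chosen with earlier results of these data known, and 4 lists were added after values were seen. Outdated symbols and faulty name patterns in the lists were also corrected at that point. Named genes, leaving out CG and CR numbers in the first groups, were the 25 highest and 25 lowest with both levels above the filter, 10 each way with 1 level below it, up to 6 each way per list plus its ligands, receptors, kinases or defining factors, and 15 each way by gap to the other arrays, with at most 3 CG or CR numbers each. Counting was tested on simulated data. Python 3.11.15, NumPy 2.4.6 and pandas 2.3.3 were used. Alternatives are given in the closing section. Promoter sequences were not used here.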

Additional observations from a re-analysis of the deposited data

How the results depend on the processing

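Genes 2-fold higher numbered 727 and lower 1111. Values as deposited gave 562 and 1250, centring on array medians 726 and 1148, no filter 738 and 1179, averaging over probe sets 717 and 1065, and the WT control baseline 824 and 1163. With both levels above the filter value the counts were 584 and 558, since dim genes drop out. A 1.5-fold threshold gave 1733 and 1506, and a 3-fold threshold 269 and 804. Centring on eye and antennal identity genes, which are themselves low in the scrib array, gave 4918 and 685 and moved the median of all genes by 0.98. By construction that setting raised every difference. It also kept 8461 genes instead of 7850, so the kept members of a list could differ and list medians moved by unequal amounts. It turned the medians of antennal and head identity (0.31), fat body (0.24), glia (0.45), tetraspanins (0.37), cuticle proteins (0.59), chitin genes (0.026) and Jonah and trypsin proteases (0.46), and ItgaPS4 (0.12). Under the mean of probe sets CG31064 turned (−0.27), as its probe sets oppose each other. No other direction of a list past 0.5 or a named gene past 2-fold turned. No paired analysis was possible because each group has 1 array, so no replicate could be left out. Promoter motifs were not run.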

Other observations

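Smaller families added further differences, scrib minus Ras. Among all genes 9.26% were at least 2-fold higher and 14.2% lower. In a germline, meiosis and piRNA list added after values were seen, 11 of 23 kept genes were at least 2-fold higher and 1 lower (median 0.87). They were led by tut (9.91 in the scrib array, 6.44 in Ras, 6.0 in WT control, and 7.73 and 8.06 in the Sras arrays), c(2)M (6.14-fold), a synaptonemal complex gene, and del (5.40-fold), a piRNA cluster gene, with krimp and AGO3 higher from below the filter value in Ras. The RNA-binding protein gene Rbp9, also a neuronal gene, was at least 2.41-fold lower. In an immune effector list 4 of 15 kept genes were higher and 2 lower, the latter a share near that of all genes. The higher genes were the antimicrobial peptide genes Drs (9.09 in the scrib array, 7.35 in Ras, 8.25 in WT control, and 5.96 and 6.47 in the Sras arrays), Mtk and Def, and Tep3 (4.30-fold). The lower genes were Drsl5 and IM33.

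For comparison, 9.26% of all genes were higher and 14.2% lower by 2-fold. Serpin genes included 5 higher and 2 lower of 14, tetraspanin genes 6 higher and 11 lower of 23, and yellow genes 1 higher and 5 lower of 9. All 4 imaginal disc growth factor genes past 2-fold, out of 6, were lower, with Idgf3 at 4.29-fold. Lysosomal enzyme genes LManII, Npc2a and Gal were 8.42-, 4.86- and 4.23-fold lower, in a list where 4 of 24 were lower, a share near that of all genes, and 1 higher. Among further genes highest of the 5 arrays were Ude, which encodes a uracil-DNA nuclease (11.34 in the scrib array, 8.65 in Ras), and dpr18 (8.99 against 6.51). Tdc1, a tyrosine decarboxylase gene, was 8.85-fold higher than in Ras and lay at 9.58 and 10.07 in the Sras arrays.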
